A study of Homo sapiens with 12 samples.

Results

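NEAT1, MALAT1, NORAD and TUG1 are 4 long RNAs best known for non-coding roles, and all of them held sites listed after precipitation of PANC-1 RNA with an anti-1-methylguanosine (m1G) antibody. They were chosen by their peaks in earlier results of these data, from 59792 RefSeq genes with a position, so the number and strength of their peaks are a description and were not tested. A peak of the list named MetDiff, or a summit of the list named MACS2, was counted when it lay inside the GRCh38 span of one of the RNAs, also where another gene overlaps. By this rule 14 of 9585 MetDiff peaks and 14 of 3705 MACS2 summits belonged to the set. NEAT1 had 10 MetDiff peaks and 5 summits, MALAT1 1 and 8, NORAD 2 and 1, and TUG1 1 and 0.

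PANC-1 is a widely used human cell line derived from a ductal carcinoma of the pancreas. Fragments of its polyadenylated RNA were sequenced after antibody precipitation (IP) and without it (input). The 12 libraries, all of experiment 2, formed 4 groups of 3: m1G IP from cells depleted of TRMT5 by siRNA for 4 days, m1G IP from control cells, input from the depleted cells and input from control cells. The labels call the control cells WT control. They do not say whether these cells received an siRNA or whether replicates were separate cultures. The study asked which mRNAs may carry m1G. Both lists belong to the whole series and hold no value per library, so no value below has a replicate error, no difference between TRMT5 knockdown and control cells was tested, and the sequencing depth is unknown.

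m1G carries a methyl group on the edge of guanine that pairs with cytosine. It is best known from tRNAs, where TRMT5 methylates the guanine that follows the anticodon. NEAT1 is the RNA scaffold of paraspeckles, nuclear bodies rich in the proteins NONO and SFPQ. It is made as a short polyadenylated form and a long form that share their 5′ part, and the long form ends in a triple helix instead of a poly(A) tail. MALAT1 collects in nuclear speckles, where splicing factors are stored, and its 3′ end is cut by RNase P to release the small RNA mascRNA. NORAD is a mostly cytoplasmic RNA that binds RNA-binding proteins and has been linked to genome stability. TUG1 was named for its rise after taurine in mouse retina. The RefSeq table used here classes TUG1 as protein coding, and the other members as lncRNA.

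Positions below are counted in bases from 1 at the 5′ end of each RefSeq span, in genomic order along the strand given by the MetDiff list. NEAT1 spans 65422798 to 65445540 on the plus strand of chromosome 11 (22743 bases), MALAT1 65497738 to 65506516 on the same strand (8779 bases), NORAD 36045618 to 36050960 on the minus strand of chromosome 20 (5343 bases) and TUG1 30969265 to 30979395 on the plus strand of chromosome 22 (10131 bases). Each span held MetDiff peaks of 1 Ensembl ID, and these IDs had 0 peaks elsewhere in the list. NEAT1 and NORAD are unspliced, while TUG1 is spliced, so for TUG1 the count of bases includes introns. The closest MetDiff peak outside a span lay 10712 bases from NEAT1 and had a fold of 3.08. The closest summit outside lay 31281 bases from MALAT1 with −log10 q of 14.1, so no listed site lay just outside a span.

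RefSeq (GRCh38.p14) gives MALAT1 an upstream start at base 1 and an internal start at base 1308, and both matter for reading its positions. The starts of MALAT1 and NORAD are shown as 5′ to 3′ sequence, since all distances are measured from them, with 50 bases upstream in lower case and the first 50 transcribed bases in capitals.
MALAT1 upstream start, chr11:65497688-65497787, plus strand: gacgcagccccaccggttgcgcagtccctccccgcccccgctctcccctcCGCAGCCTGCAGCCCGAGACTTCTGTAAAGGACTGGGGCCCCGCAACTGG
MALAT1 internal start, chr11:65498995-65499094, plus strand: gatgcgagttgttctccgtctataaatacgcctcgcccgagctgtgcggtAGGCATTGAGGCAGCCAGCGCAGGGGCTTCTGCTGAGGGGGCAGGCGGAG
NORAD start, chr20:36050911-36051010, minus strand: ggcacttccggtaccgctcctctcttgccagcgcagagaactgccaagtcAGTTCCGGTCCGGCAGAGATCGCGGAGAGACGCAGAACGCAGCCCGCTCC
Guanine made up 48% of the capitals at the internal MALAT1 start, 32% at the upstream start and 34% at the NORAD start, beside a median of 30% over 35116 promoters of the same table. Windows from 250 bases before to 50 bases after the starts of MALAT1, NORAD and TUG1 held 0 MetDiff peaks and 0 summits. The share of all start windows that hold a site is not given here, so these zeros say nothing of guanine content. The first listed sites downstream were the NORAD summit, 271 bases after its start, a MALAT1 summit 449 bases after the internal start, and the TUG1 peak 826 bases after its start.

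The list of MetDiff peaks turned out to consist of 2 sections, which bears on how many sites NEAT1 has. It runs through the chromosomes once for 9318 peaks and then starts again on chromosome 1 for another 267 peaks under 106 gene IDs. Of these IDs, 20 also had peaks in the first section, and in 18 of them peaks of both sections overlapped. NEAT1 was one of them, with 4 peaks in the first section and 6 in the second. Neither the labels nor the file say what the second section represents. The peaks of MALAT1, NORAD and TUG1 were all in the first section.

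The overlapping NEAT1 peaks gave similar folds and different significance in the 2 sections. The fold in this list was taken as enrichment of IP over input from its place in a layout without header. It and the false discovery rate (FDR) are the authors' values. At bases 625 to 775 the first section listed a fold of 2.48 with an FDR of 6.61e-05, and the second section listed 2.22 with 5.89e-07 for bases 651 to 751. At bases 2520 to 2819 the first section listed 5.59 (FDR 3.98e-04), and the second 5.58 (FDR 5.89e-07) for bases 2550 to 2650. At bases 3517 to 3616 the first section listed 2.11 (FDR 0.00123), and the second 1.72 (FDR 3.89e-05) for bases 3500 to 3600. In all 3 pairs the fold was higher in the first section, by little in the middle pair, and the FDR was lower in the second. Joining what overlaps leaves 7 separate NEAT1 stretches instead of 10 peaks, and 11 stretches in the 4 RNAs. In the whole list 22 IDs had at least 10 peaks, and 120 IDs had at least 7 joined stretches. For this count over the list, peaks were joined over their whole extent, introns included, and not by exon block.

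**Figure D1:**
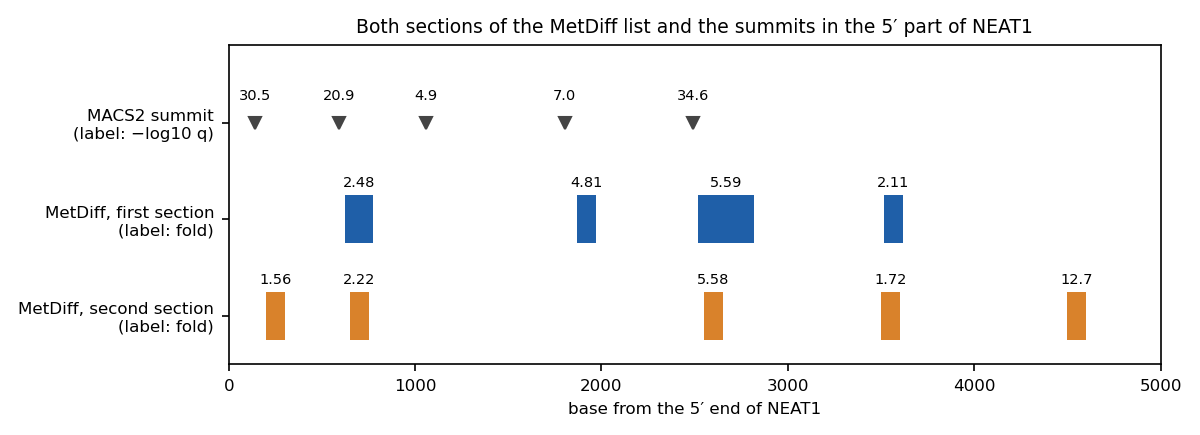
MetDiff peaks of both list sections and MACS2 summits in the 5′ part of NEAT1, by base from the 5′ end of its span. Bars are peaks labelled with their fold, triangles are summits labelled with −log10 q. The sections share 3 sites, with folds of 2.48 and 2.22, 5.59 and 5.58, and 2.11 and 1.72.

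NEAT1 sites were gathered in the 5′ part of its span. Of its 10 MetDiff peaks, 9 lay within the first 4599 bases, 20.2% of the span. The other NEAT1 peak lay near the 3′ end, at bases 21943 to 22043 (chromosome 11, 65444740 to 65444840), 700 bases before the end of the span. It had a fold of 8.14 and an FDR of 0.00316, and it was listed in the second section only. Between these parts, 17343 bases of NEAT1 held no MetDiff peak and no summit. The microRNA gene MIR612, which lies inside NEAT1 from base 21661, ended 183 bases before that 3′ peak and held 0 peaks. The end of the short form was not located here, so it cannot be said which peaks lie in the part shared by both forms.

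Within the 5′ part, fold did not fall or rise steadily along NEAT1. The first peak, at bases 201 to 301, had the lowest NEAT1 fold, 1.56 (FDR 5.89e-07). A peak at bases 1871 to 1971 had a fold of 4.81 (FDR 0.00275). The highest fold, 12.7, belonged to the last peak of this part, at bases 4499 to 4599 (65427296 to 65427396), with an FDR of 0.00251. The peak of lowest fold thus had a lower FDR than the peak of highest fold. Both were listed in the second section only.

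The 5 NEAT1 summits all lay in the first 2492 bases, so none accompanied the peak of highest fold or the 3′ peak. Those at bases 141, 591 and 1057 came from a single MACS2 peak and had −log10 q of 30.5, 20.9 and 4.91. A summit at base 1803 had 7.02. The strongest NEAT1 summit, at base 2492 (65425289), had 34.6, and 10.5% of all summits had at least this value. Neighbouring NEAT1 summits were 450 to 746 bases apart.

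**Figure D2:**
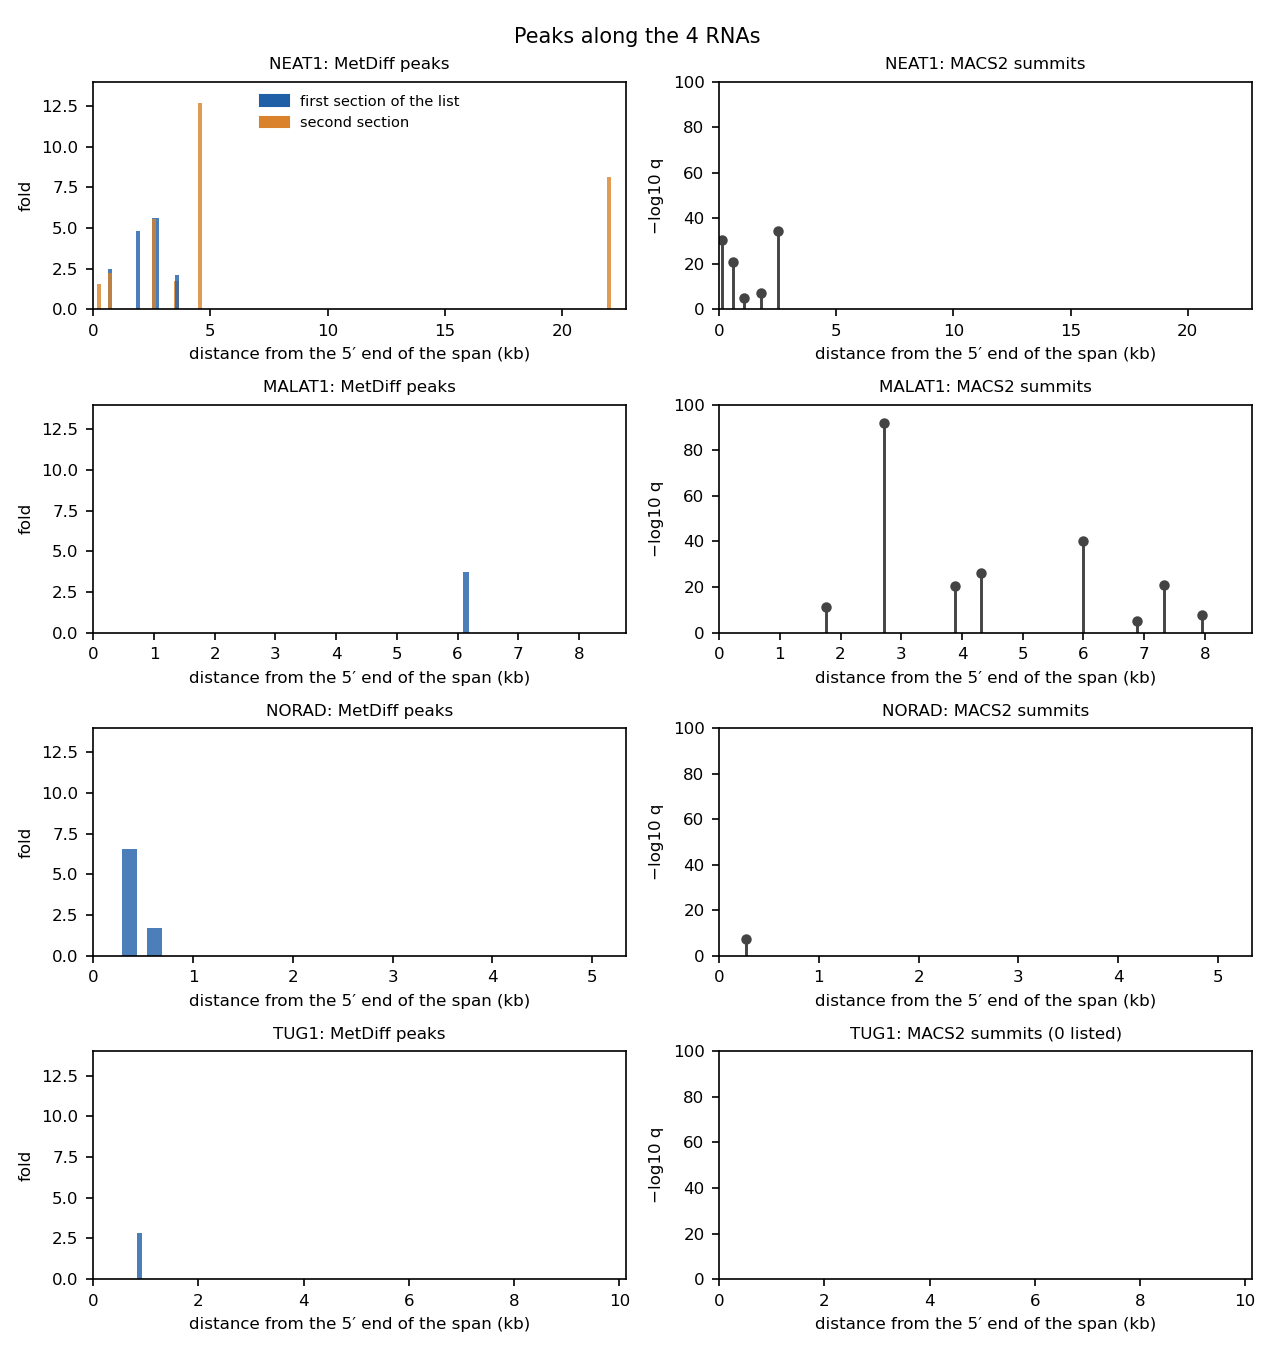
MetDiff peaks (left, fold on the y axis, coloured by list section) and MACS2 summits (right, −log10 q on the y axis) along NEAT1, MALAT1, NORAD and TUG1, with distance from the 5′ end of each span in kb. NEAT1 and NORAD sites gather at the 5′ side, the 8 MALAT1 summits spread from base 1757 to base 7951, and TUG1 has 1 peak and 0 summits.

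MALAT1 had the opposite make-up, with many summits and a single MetDiff peak. Its 8 summits, from 6 MACS2 peaks, were spread over the RNA from base 1757 to base 7951, with none in the part upstream of the internal start. The strongest, at base 2714 (chromosome 11, 65500451), had −log10 q of 92.0, a value reached by 24 of 3705 summits. The next, at base 5986 (65503723), had 40.3. In between lay summits at bases 3880 and 4318 with 20.6 and 26.2. The summit closest to the 5′ end, at base 1757, had 11.03. Towards the 3′ end the values were 4.97 at base 6886, 20.9 at base 7323 and 7.66 at base 7951. The values followed no gradient along MALAT1, and neighbouring summits were 437 to 1668 bases apart. The last MALAT1 summit lay 429 bases before mascRNA, and mascRNA held 0 sites of either list.

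The only MALAT1 MetDiff peak, at bases 6086 to 6185 (65503823 to 65503922), had a fold of 3.75 and an FDR of 1.32e-05. It lay next to the second-strongest summit and 3372 bases from the strongest one. The list thus named no exon block at the site where the other list had its highest MALAT1 value. All 8 summits and the MetDiff peak also lay inside TALAM1 (65499312 to 65507432), the antisense RNA gene of this locus. The MetDiff peak is listed on the plus strand, that of MALAT1. Summits carry no strand, so for them MALAT1 and TALAM1 cannot be told apart. In the whole list 40 RefSeq genes held at least 8 summits, and 3 of these, MALAT1, TALAM1 and LOC107985291, had at most 1 MetDiff peak.

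NORAD sites lay close together near its 5′ end. The first of its 2 MetDiff peaks, at bases 290 to 438 (chromosome 20, 36050523 to 36050671), had a fold of 6.56. The second, at bases 537 to 686 (36050275 to 36050424), had a fold of 1.69. The peaks were 98 bases apart and carried the same p-value, 1.1e-09, and FDR, 2.88e-08. The only NORAD summit, at base 272 (36050689), had −log10 q of 7.57, a value reached by 80.4% of summits. The 4657 bases of NORAD downstream of the second peak held no site of either list.

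TUG1 had the fewest sites of the 4 RNAs. Its single MetDiff peak, at bases 827 to 926 (chromosome 22, 30970091 to 30970190), had a fold of 2.82 and an FDR of 0.00229. No MACS2 summit was listed inside TUG1. Relative to span length, which includes the introns of TUG1, MetDiff stretches numbered 0.308 per kb in NEAT1, 0.114 in MALAT1, 0.374 in NORAD and 0.0987 in TUG1. Summits numbered 0.220 per kb in NEAT1, 0.911 in MALAT1 and 0.187 in NORAD. The order of the RNAs thus differed between the lists, with NORAD first for stretches and MALAT1 first for summits.

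Equal p-values at unequal folds also occurred in NEAT1, where the peaks with folds of 1.56, 2.22 and 5.58 all had p = 3.2e-08 in the authors' deposited table. Across the list, 2171 of 7359 peaks in IDs with several peaks (29.5%) had the same p-value as another peak of their ID. The p-values are written with 2 digits at most, so some of these ties may be rounding. Peak limits were also coarse, since 97.6% of MetDiff peaks covered an exonic length within 2 bases of a multiple of 50. The 14 peaks of the 4 RNAs were each a single block, of 100 to 300 bases.

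By strength, the sites of the 4 RNAs ranged over most of both lists. All 14 MetDiff peaks had an FDR under 0.01, beside 91.8% of the list. A fold of at least 2 was reached by 11 of 14 peaks, beside 92.9% of the list. Their folds lay above the list median of 4.5 in 6 of 14 peaks, 5 of them in NEAT1 and 1 in NORAD. The NEAT1 peaks with folds of 5.59 and 5.58 are among these and overlap, as listings of 1 site in both sections. The highest, that of NEAT1 at 12.7, was reached by 6.32% of all peaks, and the lowest, that of NEAT1 at 1.56, by 98.2%. Among summits, 9 of 14 had −log10 q of at least 10, beside 68.1% of the list, and 8 of 14 lay above the list median of 13.7. The single fold of MALAT1 was reached by 61.2% of peaks and that of TUG1 by 77.9%. The levels of the 4 RNAs themselves were not analysed here.

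**Figure D3:**
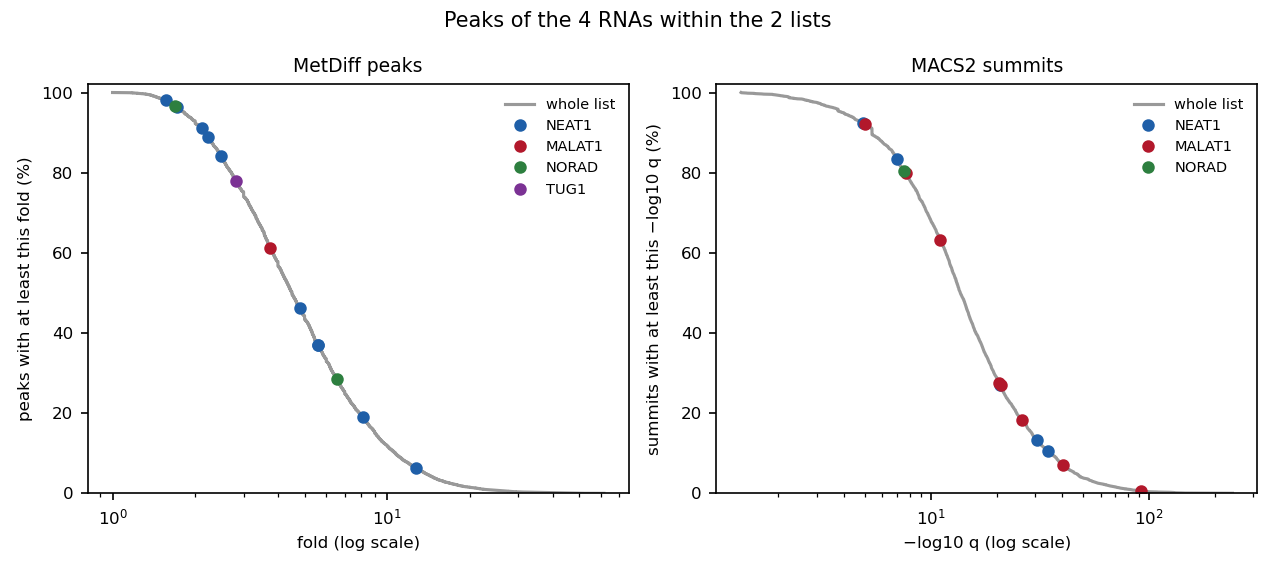
Share of all MetDiff peaks with at least a given fold (left) and of all summits with at least a given −log10 q (right), both on log x axes. Grey lines are the whole lists and points are sites of the 4 RNAs. The points run from near the top of the curves to 6.32% for fold (NEAT1) and 0.648% for −log10 q (MALAT1).

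No summit of the 4 RNAs lay inside an exon block of a MetDiff peak, 0 of 14, beside 17.7% of all summits. Within 150 bases of a block lay 6 of 14, beside 63.6% of all summits. All 6 were on the 5′ side of their block, at distances of 18 to 100 bases, on the plus strand for NEAT1 and MALAT1 and on the minus strand for NORAD. This placement was shared with the whole list. Of 1703 summits that lay outside a block and within 150 bases of it, 1531 (89.9%) were on its 5′ side, 797 of 883 beside minus-strand blocks and 734 of 820 beside plus-strand blocks. The 5′ side was thus the more frequent one beside blocks of either strand.

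The size of the offset was measured to the midpoint of the nearest block. In NEAT1 it was 110, 109, 118 and 177.5 bases towards the 3′ end for the summits at bases 141, 591, 1803 and 2492. The last of these was taken to a block of 300 bases in the first section, and the 101-base block of the second section, somewhat farther from the summit, has its midpoint 108 bases downstream. The midpoint of the MALAT1 peak lay 149.5 bases downstream of its summit, and that of the first NORAD peak 92 bases. Over the 2358 summits within 150 bases of a block, the median offset was 106 bases towards the 3′ end, with quartiles of 62.5 and 131, so that the offsets of 149.5 and 177.5 lay above the upper quartile. With all summits moved by that median towards the 3′ end, 6 of 14 summits of the 4 RNAs and 50.6% of all summits lay inside a block, an alternative chosen after the data were seen. The other 8 summits, 1 in NEAT1 and 7 in MALAT1, remained outside. Neither list names a modified base.

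**Figure D4:**
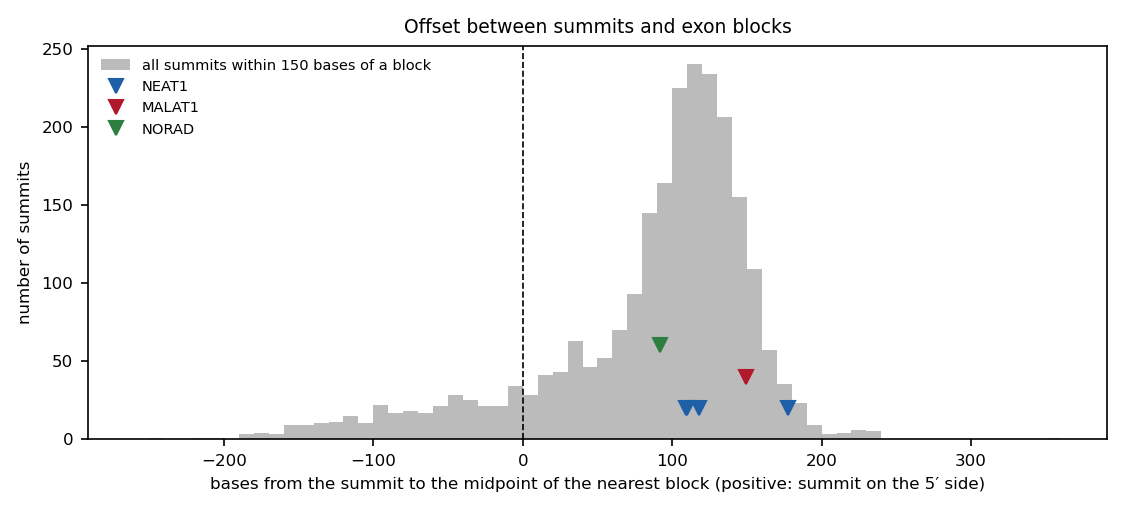
Bases from each summit to the midpoint of the nearest MetDiff block, positive where the summit is on the 5′ side, for all 2358 summits within 150 bases of a block (grey bars, number of summits) and for those of NEAT1, MALAT1 and NORAD (triangles, placed at arbitrary heights). The 6 triangles lie between 92 and 177.5 bases, around and above the median of 106.

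Genes that encode partners of these RNAs had sites as well. They are described by counts over lists chosen with earlier results of these data known, with no test of the lists. Paraspeckle proteins are the partners of NEAT1, and of their 20 genes on the list, 15 had a MetDiff peak in the span and 13 a summit, beside 21.8% and 9.45% of 20056 protein-coding genes. The background includes genes that the cells do not express. The median of the highest folds was 4.13 over the paraspeckle genes with a peak and 6.23 over all protein-coding genes with one. SFPQ and NONO, whose proteins are needed to build paraspeckles, had highest folds of 7.81 and 3.36 and highest −log10 q of 26.4 and 10.1. MATR3 had 4.13 and 10.4, and TARDBP a fold of 8.83 with no summit. HNRNPK had a fold of 30.6, uncertain because reads can be shared with its pseudogenes, and HNRNPH3 45.2, at a peak that other gene spans also cover.

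Among 12 genes for nuclear speckle and MALAT1-binding proteins, 6 had a MetDiff peak and 8 a summit, beside the same 21.8% and 9.45% of protein-coding genes, with a median highest fold of 4.88. The speckle scaffold genes SRRM2 and SON had highest folds of 9.08 and 6.85 and highest −log10 q of 21.3 and 34.6, and the splicing factor gene U2AF2 had 4.76 and 43.6. METTL16, which encodes a methyltransferase that binds the MALAT1 triple helix, had no site. Of 7 genes for NORAD-binding proteins, 3 had a MetDiff peak and 3 a summit. Among them, RBMX, which encodes an RNA-binding protein of the nucleus, had a summit with −log10 q of 16.7 and no MetDiff peak. Of 5 genes for Polycomb repressive complex 2, which has been reported to bind TUG1, 0 had a MetDiff peak and 1, EZH2, had a summit (−log10 q of 5.37). The lists for NORAD and TUG1 are short, and the PRC2 counts in particular were near the shares of all protein-coding genes.

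Sites were also listed in other long non-coding RNAs. Of 20 listed, 4 held at least 1 MetDiff peak and 3 at least 1 summit, beside 2.26% and 0.818% of 18330 RefSeq lncRNA genes, a background that likewise includes genes not expressed here. The imprinted RNA MEG3 had 9 MetDiff peaks, the strongest with a fold of 10.3, and 1 summit. The imprinted RNA H19 had 4 peaks and 5 summits, all of which other gene spans also cover. ZFAS1 had 1 peak with a fold of 14.9 and 1 summit, the summit also inside another gene span. DANCR had 1 peak with a fold of 9.67. Among the 415 lncRNA genes with a MetDiff peak in their span, 2 had at least as many peaks as NEAT1, NEAT1 included. A fold at least as high as that of NEAT1 was found in 46 of them, as high as that of NORAD in 178 and as high as that of MALAT1 in 316. These ranks of NEAT1 use both sections of the list, and its highest fold is in the second. The rank by number counts 10 NEAT1 peaks, some of them listings of 1 site in both sections. Joining overlaps leaves 7 NEAT1 stretches, and a rank by joined stretches is not given here. In the first section alone NEAT1 had 4 peaks and a highest fold of 5.59. The 9 peaks of MEG3 and the median highest fold of 6.0 over the 415 genes were taken over both sections. They are thus not matched to the first-section values of NEAT1, and ranks within the first section are not given here.

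Genes with the same number of peaks and summits were sought among genes that were the sole gene at their sites. None of these matched NEAT1 or MALAT1 in both numbers. MALAT1 itself would not pass that condition because of TALAM1, and with shared sites counted, TALAM1 and LOC107985291 also had 1 MetDiff peak and 8 summits. The numbers of NORAD were shared by 211 genes, of which SCARB1, TSPAN4 and MAFK had the closest highest folds (6.5, 6.63 and 6.68). Those of TUG1 were shared by 1180 genes, among them ARFGAP3, DYNC1I2 and RABGAP1 with the same fold of 2.82. These are matches in 3 numbers per gene and say nothing of a shared role.

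The labelled cell type could be compared with marker genes only by their sites, since no levels were used here. Of 8 epithelial and ductal markers, 5 had a MetDiff peak and 3 a summit, beside 21.8% and 9.45% of protein-coding genes. Among them, KRT8 had a highest −log10 q of 45.4, KRT18 had 39.3 at a summit that another gene span also covers, and KRT19 had a fold of 7.83. EPCAM, MUC1 and KRT7 had no site in either list. Of 6 mesenchymal markers, 3 had a MetDiff peak and 2 a summit, with VIM at −log10 q of 109, at a summit also inside its antisense gene VIM-AS1. FN1, SPARC and ZEB1 had no site. Acinar and islet markers (0 of 8) and immune markers (0 of 5) had none, but with so few genes and that background these zeros do not check the cell type.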

How the data were processed

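RNA bound by an anti-m1G antibody and input RNA were sequenced from 12 libraries. Per the submitters' processing notes, tools included STAR 2.7.1 and MACS2 2.2.5 with GRCh38. Settings, the libraries behind each list and any pooling of replicates are not stated there. The deposited lists have no header. The authors' summit value was read as −log10 of a q-value. The authors' MetDiff values were read as a p-value, an FDR on the log10 scale, and a ratio taken as fold of IP over input. That last reading is not settled.

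Peaks were assigned with Python 3.11.15 and pandas 2.3.3 to RefSeq spans (GRCh38.p14) through their exon blocks, and coordinates are counted from 1. The list restarts once on its first chromosome, and the peaks from there on were called the second section. The interval rules were tested on simulated positions. The RNAs, gene lists and rules for named genes were chosen with earlier results of these data known. Named were the 4 RNAs, genes overlapping them, listed genes with a site, and genes with equal peak and summit numbers. METTL16, LOC107985291 and the markers named without a site were named after their values were seen. No model was fitted and no library depth is known. No genome or exon annotation was used here, so the planned guanine content of the peaks was not analysed. The values of some listed genes are counted in the totals and not reported here.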

Additional observations from a re-analysis of the deposited data

How the results depend on the processing

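Of 59 alternative values, 15 differed from the value given by more than 1.5 times for a count or, for a share, by more than its 95% Wilson interval, and 0 reversed. The other 44 include counts that are 0 throughout. A limit of FDR under 0.01, naming by Ensembl ID, spans widened by 1000 bases and block centres changed no count or position of the 4 RNAs. With the first section of the MetDiff list alone, NEAT1 had 4 peaks. Joining overlaps gave 7, and MALAT1 had 6 summits both with −log10 q of at least 10 and with summits joined. With a fold of at least 2, NORAD had 1 peak. Counting only sites with a sole gene left MALAT1 with 0 peaks and 0 summits, since TALAM1 covers them. With −log10 q of at least 10, NEAT1 had 3 summits and NORAD 0. Joining summits of 1 MACS2 peak left NEAT1 with 3. By median instead of highest fold, the share of the list at least as high was 63.2% for NEAT1 and 55.2% for NORAD. Ranked among gene IDs by highest fold, it was 12.7% for NEAT1, 78.6% for MALAT1, 46.7% for NORAD and 89.3% for TUG1. Of the summits, 0 lay inside a block, 6 within 150 bases and 6 inside after the move by 106 bases. Joined peaks, joined summits, the single section and moved summits were chosen after seeing the data. No paired analysis was possible because the lists hold no value per library. For the same reason no replicate was left out. Unknown depth limits every absence.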
